A study of Rattus norvegicus with 2 samples.

Results

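The genes described here encode proteins of the mitochondrial ribosome. They were chosen by name: every row of the deposited rat kidney gene table whose symbol starts with Mrpl or Mrps followed by a digit, 65 of 29516 rows. Each of the 65 is a separate symbol, 39 for the large subunit (Mrpl) and 26 for the small subunit (Mrps). Rats of the inbred strain F344, which often develops chronic kidney disease with age, ate either a casein control diet or a diet with 14% soy from 16 months of age for 4 months, and their kidneys were frozen at 20 months. The study's question was whether soy protein protects the ageing kidney. The labels give 1 library per diet and no strain, allele or agent that differs between the diets; the sources used here state neither the sex, the number of rats behind a library nor the part of the kidney taken. Without replicates, a difference between the diets cannot be told apart from a difference between these 2 libraries.

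Mitochondria carry their own ribosomes, which translate the few membrane proteins of the respiratory chain and the ATP synthase that the mitochondrial genome encodes. The ribosomal RNA of these ribosomes comes from the mitochondrial genome, whereas all of their proteins are encoded in the nucleus, made in the cytosol and imported. Kidney tubules are rich in mitochondria because the reabsorption of salt and solutes consumes much ATP. Many proteins of the particle descend from bacterial ribosomal proteins and many others are found only in mitochondria, and each protein is needed in equal number in the finished particle, apart from a stalk protein present in several copies.

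The values are FPKM, fragment numbers scaled to the length of the transcript and to the mapped fragments of the library, so levels can be compared between genes. They summed to 643145 in the casein library and 656248 in the soy library, 2.04% more, and the number of reads behind them is unknown. Kidney markers were abundant under both diets, such as Umod, which encodes uromodulin of the thick ascending limb (2842 FPKM with casein, 3662 with soy). All 10 leukocyte markers had the lower value under soy, 9 of them by at least 1.5-fold. The median of their log2 differences was -1.03, and 2 were called in the authors' deposited table. Their summed level of 1142 and 797 FPKM rests mostly on Cd74 (978 and 720 FPKM), which differed least. The 6 fibroblast and matrix markers were all lower too (median -1.01), and 4 were called. Dcn (114 and 99.1 FPKM), which differed least, was the largest part of their sum of 215 and 146 FPKM. Of 10 proximal tubule markers 7 were higher (median log2 difference over the 10, 0.30), and the other 3, Slc5a12 (16.4 and 6.85 FPKM), Slc5a2 (21.8 and 10.7 FPKM) and Gatm (741 and 604 FPKM), were lower. Slc5a12 is the only one of these 10 called in the authors' deposited table (q = 0.000442). The largest single part of the summed level of the 10, 4080 and 5168 FPKM, was Slc7a13 (1412 and 2246 FPKM). No marker of these 3 lists was listed at 0. Markers of the thick ascending limb and distal tubule were split, with Umod and Slc12a1 higher and Calb1 (186 and 102 FPKM) and Slc12a3 (192 and 175 FPKM) lower, so that their sum of 3524 and 4372 FPKM follows Umod. Collecting duct markers were higher in 4 of 6 cases (427 and 583 FPKM summed), with Scnn1b and Scnn1g lower. All 5 podocyte markers were lower (141 and 113 FPKM), and 3 of 4 endothelial markers were higher (101 and 119 FPKM). The part of such shifts in cell makeup in the values below was not tested, and in whole kidney fewer cells of a type and less RNA per cell cannot be told apart. All 37 rows on the mitochondrial genome, its ribosomal RNA and protein-coding genes included, were listed at 0 under both diets. The RNA of the mitochondrial ribosome and the messages it translates therefore have no value here.

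Mitochondrial ribosomal protein genes had slightly higher values in the soy library, by 1.23-fold at most. Of the 65 genes, 53 (81.5%) were higher with soy and 12 lower, against 52.8% higher among the 14077 genes of the table whose mean over the diets reached 1 FPKM, called all genes below. Among the 8772 genes whose mean lay in the range of the 65, from 6.04 to 152 FPKM, 56.7% were higher. The difference used is log2((soy FPKM + 0.1)/(casein FPKM + 0.1)), in which a positive value is higher with soy. Its median over the 65 genes was 0.08, and the middle 50% of them lay between 0.02 and 0.12. Over all genes the median was 0.01 and the middle 50% lay between -0.14 and 0.14. All 65 genes passed the limit of 1 FPKM, were listed above 0 under both diets and carried the test status OK.

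None of the 65 genes reached 1.5-fold in either direction, whereas 11.5% of all genes did, 3.43% with the higher and 8.08% with the lower value under soy, and 6.59% of the genes in the same range of mean. For none was the larger value 25% or more above the smaller one, against 23.6% of all genes and 16.7% of those in the same range. With a limit of 1.1-fold, 11 genes were higher (25.3% of all genes, 24.5% of those in range). By the same limit 1 gene, Mrps27, was lower (25.7% of all genes, 19.6% of those in range). Summed over the 65 genes, the level was 3005 FPKM with casein and 3166 with soy, 5.34% more. The members made up 0.467% of all FPKM with casein and 0.482% with soy.

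**Figure D1:**
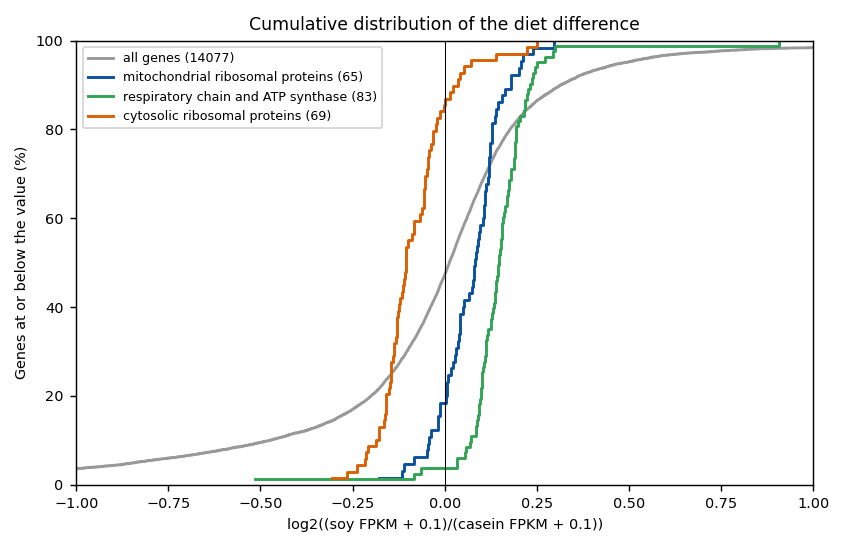
Cumulative share of genes (%, vertical axis) by the log2 difference of soy over casein (horizontal axis, cut at -1 and 1) for all 14077 genes and 3 ribosomal or respiratory groups, with the number of genes in brackets. The curve of the 65 mitochondrial ribosomal protein genes is steep, spans -0.18 to 0.30 and lies between that of the cytosolic ribosomal proteins on its left and that of the respiratory chain on its right.

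The authors' deposited table calls none of the 65 genes different, while it calls 0.895% of all genes. The lowest p-value among them in the authors' deposited table was 0.261, for Mrps18c, and the q-value was 0.999991 for each; 0 of the 65 had a p-value under 0.05. The p-values of these 65 genes in the authors' deposited table equal the two-sided normal tail of its test statistic within 2.68e-06, so log2 fold divided by that statistic gives the standard error the authors' test used. This implied error had a median of 0.25 log2 units over the 65 genes and a range from 0.23 to 1.89. For 63 of the 65 genes the difference was smaller than its own implied error. The exceptions were Mrps18c and Mrpl16, at 1.12 and 1.02 times theirs. The sources used here do not say what spread that error covers when the labels give 1 library per diet.

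Levels differed far more between genes than between the diets. With casein they ran from 5.75 FPKM for Mrpl47 to 147 FPKM for Mrpl54, a 25.6-fold range, and with soy from 6.33 to 157 FPKM for the same genes, 24.8-fold. The standard deviation of the log2 level between genes was 0.95 with casein and 0.95 with soy, and that of the log2 difference between the diets was 0.09. Of the 65 genes, 51 had a mean between 20 and 100 FPKM, 11 lay under 20 FPKM and 3 over 100 FPKM, with a median of 40.8 FPKM. Levels in the 2 libraries followed each other closely, with Pearson's r of 0.996 across the 65 genes on the log2 scale; this is a description across genes, which are not independent replicates and share both libraries. The order of the levels barely differed, and 7 genes changed rank by more than 3 places, the most being 9 places for Mrps18c, from 41 to 32.

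**Figure D2:**
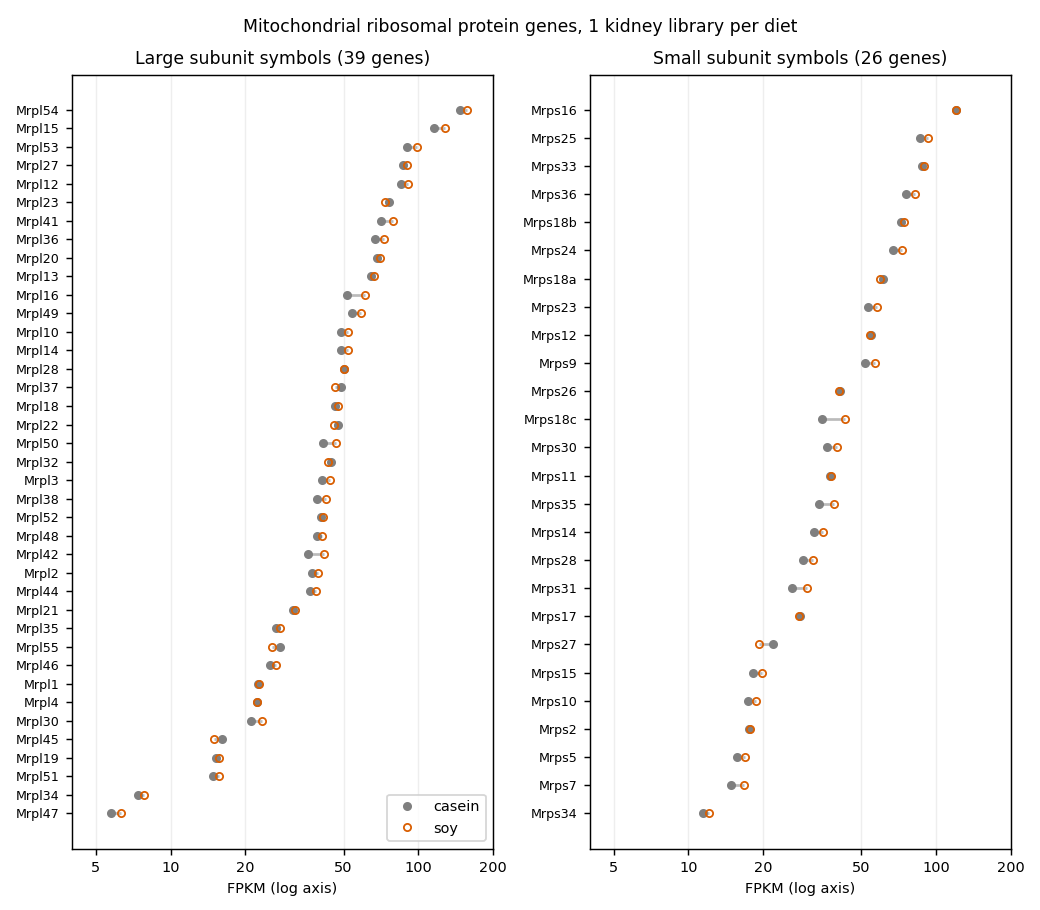
FPKM (log axis) of each of the 39 large subunit and 26 small subunit symbols in the casein library (filled grey) and the soy library (open orange), ordered by mean; a line joins the 2 values of a gene. Levels run from about 6 to 157 FPKM, and the open symbol lies to the right of the filled one for 53 of 65 genes.

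The most abundant member was Mrpl54, a protein at the base of the large subunit's stalk, with 147 FPKM with casein and 157 with soy. Mrpl15, which has a bacterial counterpart in the core of the large subunit, stood at 116 FPKM under casein and 129 under soy. Mrps16, a conserved protein of the small subunit body, had 121 FPKM under both diets and a log2 difference of 0.00. These 3 genes were the only members with a mean over 100 FPKM. Mrpl53, another protein near the stalk, had 90.4 and 98.4 FPKM, and Mrpl27, a counterpart of the bacterial protein beside the peptidyl transferase centre, 87.0 and 90.0 FPKM. Mrps25, a mitochondria-specific protein of the small subunit, had 85.9 and 92.6 FPKM. All 6 most abundant genes had the higher value with soy, by 1.11-fold at most.

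At the other end, Mrpl47, the counterpart of a bacterial protein at the exit of the peptide tunnel, had 5.75 FPKM with casein and 6.33 with soy. Mrpl34, one of the smallest proteins of the large subunit, had 7.38 and 7.80 FPKM, and Mrps34, a mitochondria-specific small subunit protein, 11.4 and 12.1 FPKM. Mrpl51 had 14.8 and 15.7 FPKM and Mrpl19, a conserved protein at the subunit interface, 15.3 and 15.7 FPKM. Mrpl45 had 16.2 and 14.95 FPKM and was the only one of these 6 with the lower value under soy. Split at the median level, the 32 more abundant genes had a median log2 difference of 0.09 with 25 higher, and the 33 less abundant ones 0.08 with 28 higher.

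Both subunits showed small differences of the same direction. The 39 large subunit genes had a median log2 difference of 0.08, with 32 higher and 7 lower, and a summed level of 1859 FPKM with casein and 1959 with soy. The 26 small subunit genes had a median of 0.11, with 21 higher and 5 lower, and a summed level of 1147 and 1206 FPKM. Symbols do not always match the place of a protein: Mrps30 and Mrps18a sit in the large subunit, and Mrps36 is now known as a component of the 2-oxoglutarate dehydrogenase complex. For Mrps30 the values were 36.3 and 39.7 FPKM, and for Mrps36 75.9 and 82.5 FPKM, the latter with several further copies in RefSeq's annotation. Sorted by place, 41 large subunit genes had a median of 0.08 and 23 small subunit genes 0.11. The 37 genes with a bacterial counterpart had a median of 0.08 (31 higher), and 24 genes counted as without one had 0.10 (20 higher); 4 genes of unsure origin were left out of that split.

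The largest difference was that of Mrps18c, with 34.8 FPKM with casein and 42.8 with soy, 1.23-fold higher (log2 0.30). It is 1 of 3 Mrps18 genes, which share the number of a bacterial small subunit protein, and its product takes the place of that protein in the small subunit. In the authors' deposited table the 95% range implied for its log2 fold ran from -0.22 to 0.81. Mrps18b, whose product also sits in the small subunit at another site, had 72.1 and 74.3 FPKM (log2 0.04). Mrps18a, whose product sits in the large subunit, had 60.9 and 59.4 FPKM (log2 -0.04). The gene of the 3 with the lowest level thus had the largest difference, and none of the 3 was called in the authors' deposited table. In the coordinates of the files, for which the sources used here name no build, Mrps18a lies on chromosome 9 (10405162 to 10435570), Mrps18b on chromosome 20 (2985990 to 2992029) and Mrps18c on chromosome 14 (10096209 to 10102427).

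The promoters of these 3 genes are shown with that of Mrps27, the gene with the lowest log2 difference, and that of Mrpl46, which shares its promoter region with Mrps11. Each line gives 250 bases before and 50 after the start of the gene in RefSeq's annotation of the GRCr8 assembly, 5′ to 3′ on the strand of the gene. Capitals mark exact matches on either strand to 3 motifs of factors known to control genes for mitochondrial proteins. These are AAGATGGC, the core site of the zinc-finger factor YY1; CCGGAAGT, a site of ETS factors such as GABP (reverse complement ACTTCCGG); and the palindromic site of NRF1, GCGCA followed by its reverse complement TGCGC. The windows lie at chr9:22367331-22367630 (Mrps18a, minus strand), chr20:2842756-2843055 (Mrps18b, plus strand), chr14:9122857-9123156 (Mrps18c, minus strand), chr2:32473954-32474253 (Mrps27, plus strand) and chr1:142116981-142117280 (Mrpl46, minus strand).
Mrps18a: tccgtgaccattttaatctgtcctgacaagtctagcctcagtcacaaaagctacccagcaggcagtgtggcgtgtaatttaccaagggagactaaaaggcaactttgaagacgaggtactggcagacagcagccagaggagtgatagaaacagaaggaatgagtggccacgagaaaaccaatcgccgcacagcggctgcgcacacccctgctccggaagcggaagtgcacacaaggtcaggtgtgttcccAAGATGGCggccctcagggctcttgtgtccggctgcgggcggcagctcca
Mrps18b: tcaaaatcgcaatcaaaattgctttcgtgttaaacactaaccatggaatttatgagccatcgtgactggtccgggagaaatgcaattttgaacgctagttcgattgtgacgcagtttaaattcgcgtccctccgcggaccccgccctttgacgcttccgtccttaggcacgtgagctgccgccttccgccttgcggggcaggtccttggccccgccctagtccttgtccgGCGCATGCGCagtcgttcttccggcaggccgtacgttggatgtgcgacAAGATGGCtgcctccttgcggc
Mrps18c: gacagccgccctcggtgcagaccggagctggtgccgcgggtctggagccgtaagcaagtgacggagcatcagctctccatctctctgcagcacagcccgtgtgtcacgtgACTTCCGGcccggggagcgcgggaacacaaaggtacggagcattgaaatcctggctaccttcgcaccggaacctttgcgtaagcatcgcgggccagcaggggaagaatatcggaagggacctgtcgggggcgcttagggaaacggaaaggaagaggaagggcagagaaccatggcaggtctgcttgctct
Mrps27: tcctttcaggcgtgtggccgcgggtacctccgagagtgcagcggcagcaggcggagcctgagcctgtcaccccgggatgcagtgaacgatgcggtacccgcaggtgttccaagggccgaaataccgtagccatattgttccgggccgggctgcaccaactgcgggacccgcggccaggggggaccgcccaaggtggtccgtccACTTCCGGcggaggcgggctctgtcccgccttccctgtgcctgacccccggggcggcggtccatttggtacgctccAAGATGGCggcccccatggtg
Mrpl46: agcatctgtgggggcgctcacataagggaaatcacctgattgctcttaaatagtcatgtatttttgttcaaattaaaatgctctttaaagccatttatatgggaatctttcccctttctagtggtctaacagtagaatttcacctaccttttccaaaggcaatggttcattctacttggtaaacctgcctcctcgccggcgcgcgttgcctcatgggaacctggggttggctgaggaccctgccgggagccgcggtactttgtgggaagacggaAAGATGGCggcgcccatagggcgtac
The 3 Mrps18 promoters hold different combinations. Mrps18a has the YY1 letters at the start itself, Mrps18b has the NRF1 letters upstream and the YY1 letters downstream of the start, and Mrps18c has the ETS letters only. Mrps27 has both the ETS and the YY1 letters, and Mrpl46 has the YY1 letters just downstream of its start.

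RefSeq promoter sequences were at hand for 52 of the 65 genes, with 53 promoters because Mrpl14 has a second one. The YY1 letters were found in 14 of the 53 promoters (26.4%), against 3.67% of 21851 promoters of protein-coding genes and 5.30% of the 7559 promoters of table genes at or above 1 FPKM on average. The ETS letters were found in 8 promoters (15.1%, against 4.77% and 7.91%) and the NRF1 letters in 3 (5.66%, against 1.08% and 1.80%). Promoters of respiratory chain and ATP synthase genes held the YY1 letters in 18.6% of 59 cases and those of cytosolic ribosomal protein genes in 6.56% of 61. Matches to different motifs did not overlap, and 4 members held letters of more than 1 motif. Of the 14 YY1 matches, 11 began 1 to 31 bases downstream of the start, all 11 on the strand of the gene. The YY1 letters contain ATG, the triplet of the start codon, and whether a match covers the start codon was not examined.

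The 14 genes with the YY1 letters had a median log2 difference of 0.09, with 10 higher and 4 lower. The 8 genes with the ETS letters had a median of 0.06 and held both extremes, Mrps18c at 0.30 and Mrps27 at -0.18. The 3 genes with the NRF1 letters had a median of 0.04, with 2 higher and 1 lower. The 31 genes without any of the 3 motifs had a median of 0.08, with 25 higher and 6 lower. Among the genes of the factors themselves, Yy1 had 31.5 and 30.9 FPKM, Gabpa 8.70 and 9.30 FPKM, and Nrf1 6.30 and 6.51 FPKM.

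**Figure D3:**
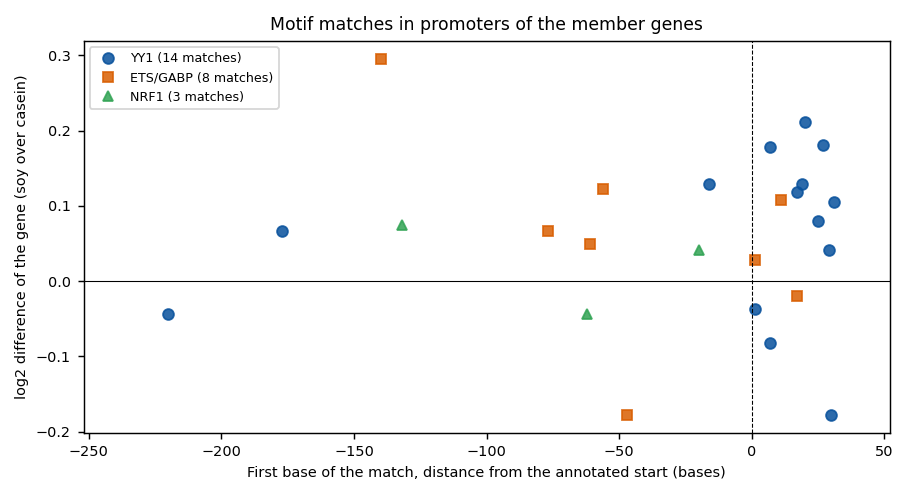
First base of each motif match (horizontal axis, bases from the annotated start, dashed line) against the log2 difference of the gene (vertical axis, soy over casein) for 14 YY1, 8 ETS/GABP and 3 NRF1 matches. YY1 matches gather just downstream of the start, in genes from -0.18 to 0.21.

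After Mrps18c, the highest differences belonged to Mrpl16 and Mrpl42. Mrpl16, whose bacterial counterpart lies near the peptidyl transferase centre, had 51.8 FPKM and 61.2 FPKM, 1.18-fold higher with soy. Mrpl42, a mitochondria-specific protein of the large subunit, had 35.99 and 41.7 FPKM, 1.16-fold higher. A further row of the table, RM42_RAT on chromosome 13, is annotated as the same protein, and its values were 18.7 and 18.8 FPKM, so the value of Mrpl42 is uncertain if fragments were shared between copies. RefSeq lists a pseudogene or further copy for 21 of the 65 genes, Mrps18c, Mrpl15, Mrpl45 and Mrpl54 among them, to which the same limit applies. Mrps31 (26.2 and 30.3 FPKM) and Mrps35 (33.7 and 38.8 FPKM), both mitochondria-specific small subunit proteins, were 1.15-fold higher each. Mrpl50 had 41.3 and 46.8 FPKM, and Mrps7, a conserved protein of the small subunit head, 14.9 and 16.8 FPKM, both 1.13-fold higher. Mrpl41, which lies in the large subunit and is found only in mitochondria, had 70.4 and 78.8 FPKM. These 8 genes come from both subunits and from all levels between 15 and 79 FPKM.

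The lowest difference was that of Mrps27, a small subunit protein of the RNA-binding pentatricopeptide repeat family, which had 21.9 FPKM under casein and 19.4 under soy, 1.13-fold lower. In the authors' deposited table the implied 95% range of its log2 fold ran from -0.92 to 0.56. Mrpl45, which anchors the large subunit to the inner membrane beside the tunnel exit, was 1.08-fold lower (16.2 and 14.95 FPKM), and Mrpl55 was 1.08-fold lower as well (27.8 and 25.7 FPKM). Mrpl37, a mitochondria-specific protein of the large subunit, had 48.8 and 46.1 FPKM. Mrpl32, whose maturation in mouse depends on a protease of the inner membrane, had 44.4 and 43.1 FPKM. Together with Mrpl22, Mrpl23 and Mrps18a these were the 8 lowest. Of the 8, 6 are large subunit symbols, as are 39 of all 65.

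**Figure D4:**
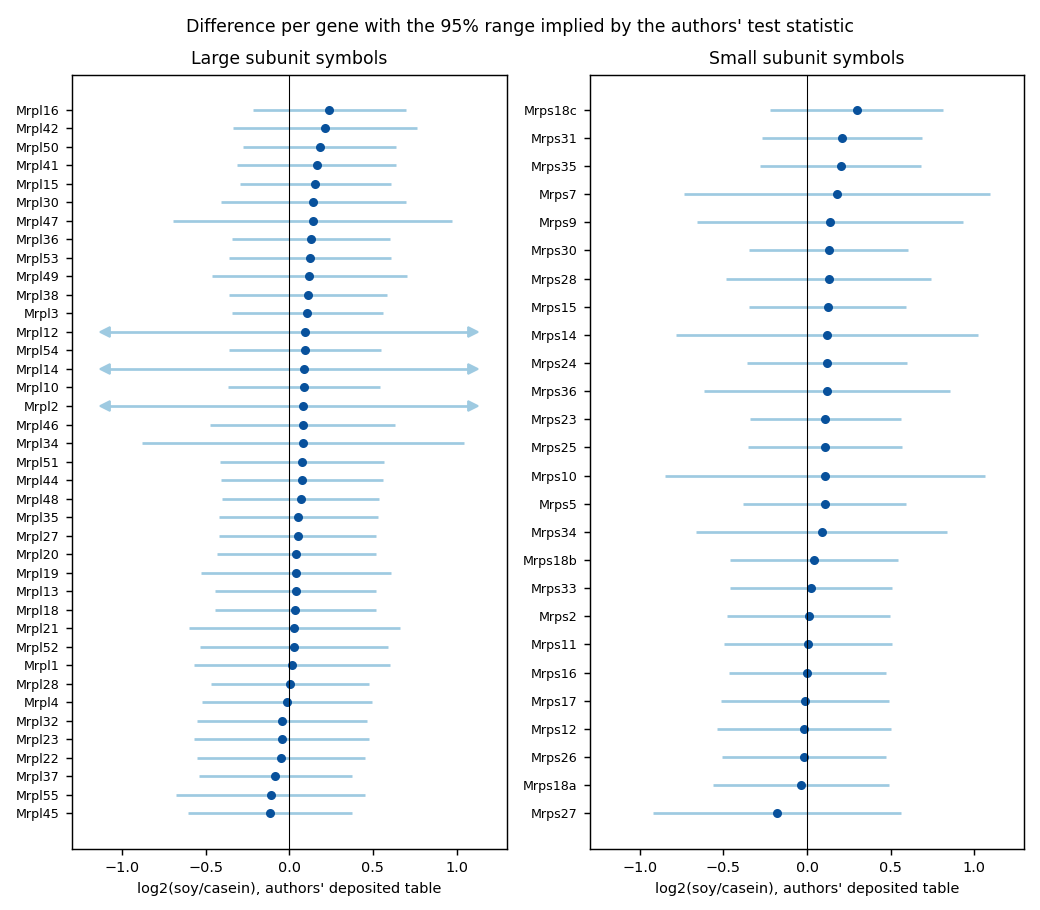
Log2 fold of soy over casein in the authors' deposited table for each gene (points), with the 95% range implied by the authors' test statistic (lines), by subunit symbol. Every range includes 0, and those of Mrpl2, Mrpl12 and Mrpl14 run beyond the span drawn, as the arrowheads show.

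Grouped by place in the particle, the stalk genes lay together. The stalk recruits the elongation factors, and its 4 members in the table were Mrpl10, Mrpl12, Mrpl53 and Mrpl54; Mrpl11 was not used here. Mrpl10, which anchors the stalk, had 48.9 and 51.97 FPKM, and Mrpl12, the protein present in several copies, 85.2 and 91.0 FPKM. All 4 were higher with soy, as were 81.5% of all 65, with log2 differences from 0.09 to 0.12. The implied error of Mrpl12 in the authors' deposited table was 1.89 log2 units. The median level of the 4, 87.8 FPKM with casein, was above the median of 40.4 FPKM for all 65. Of 8 genes for the peptide exit tunnel, 5 were in the table under these symbols. Mrpl22 (47.5 and 45.9 FPKM), Mrpl23 (76.0 and 73.7 FPKM) and Mrpl45 were lower with soy, and Mrpl44 (36.6 and 38.6 FPKM) and Mrpl47 higher. Their median log2 difference was -0.05, the only one of the 3 place groups with a negative median. Mrpl17, also listed for the tunnel, is annotated to the row RM17_RAT (102 and 101 FPKM, log2 -0.01), which was not counted in this group. The central protuberance of the large subunit had 6 of the 65 genes, all higher with soy, with log2 differences from 0.03 for Mrpl52 to 0.11 for Mrpl38. With Ict1 and Gadd45gip1, which carry other symbols, 8 of its 9 listed genes were matched by symbol, all higher, with a median of 0.07. The remaining one, Mrpl40, is annotated to the row LOC684557 (12.7 and 13.9 FPKM), which was not counted in this group. Groups of 4 to 8 genes from 1 pair of libraries give no test of a difference between places.

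The other 34 members, which were not singled out by the naming rule, had log2 differences between -0.02 and 0.14 and mean levels between 16.3 and 88.4 FPKM; 30 were higher and 4 lower. Among these 34, Mrpl2, Mrpl14, Mrps9 and Mrps14 have loci of over 100 kb in the deposited table, as has Mrpl12 among the others. The median implied error of these 5 genes in the authors' deposited table was 1.20 log2 units, against 0.25 for the 60 with shorter loci. The errors of Mrps9 (0.41) and Mrps14 (0.46) lay below the largest among the shorter loci, 0.49. Mrps11 and Mrpl46 lie next to each other on chromosome 1, 233 bases apart in the coordinates of the files. In RefSeq's GRCr8 annotation they point away from each other with their starts 234 bases apart, so that Mrpl46's printed promoter covers most of that of Mrps11. The values of Mrps11 were 37.4 and 37.6 FPKM and those of Mrpl46 25.2 and 26.6 FPKM, log2 differences of 0.01 and 0.08. The 65 genes lie on 16 chromosomes, with 11 on chromosome 10, 9 on chromosome 1 and 8 on chromosome 9, and at least 7 genes of each of these were higher with soy.

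Several mitochondrial ribosomal proteins carry other symbols. Of 8 genes listed as such, 7 were higher with soy, with a median log2 difference of 0.07. Dap3, the GTP-binding protein of the small subunit, was the exception, with 23.8 and 21.8 FPKM. The 8 include Lactb (54.2 and 56.9 FPKM), and whether its product is part of the ribosome was not examined. Chchd1, of the small subunit, had 83.4 and 90.7 FPKM, Ict1, a peptidyl-tRNA hydrolase built into the large subunit, 55.1 and 59.5 FPKM, and Gadd45gip1, of the large subunit, 3.90 and 4.35 FPKM. The row RM17_RAT, annotated as protein L17 of the large subunit, had 102 and 101 FPKM, and LOC684557, annotated as Mrpl40, 12.7 and 13.9 FPKM. These were looked up after the values had been seen.

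Other genes of mitochondrial translation also had the higher value with soy in most cases. Of 9 translation factor genes in the table (of 18 listed), 7 were higher and 2 lower, with a median of 0.15. The ribosome recycling factor Mrrf had 10.98 and 12.8 FPKM, the elongation factor gene Guf1 5.73 and 6.53 FPKM, and Mtfmt, which formylates the initiator tRNA, 16.3 and 18.6 FPKM. The release factor homologue Mtrfr, listed as RGD1563482, was lower (8.46 and 7.43 FPKM). Of 20 genes for mitochondrial aminoacyl-tRNA synthetases and the amidotransferase that makes glutaminyl-tRNA, 17 were higher and 3 lower (median 0.09). The 2 with the largest differences were amidotransferase subunits, Gatb, listed as Pet112l (49.01 and 62.7 FPKM), and Gatc, close to the limit of 1 FPKM (1.01 and 1.40 FPKM). Wars2 and Nars2, the synthetases for tryptophan and asparagine, had 8.09 and 9.27 FPKM, and 8.50 and 9.61 FPKM. The 20 also include Gars (44.1 and 45.8 FPKM) and Kars (47.8 and 46.6 FPKM). How much of the RNA of Gars and Kars serves mitochondria was not examined.

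Of 16 ribosome assembly genes, 11 were higher and 5 lower, with a median of 0.05. Mrm1, a methyltransferase of the ribosomal RNA, had 6.54 and 8.12 FPKM, the GTPase gene Gtpbp10 8.33 and 9.36 FPKM, and Nsun4, another methyltransferase of that RNA, 11.1 and 12.4 FPKM. The helicase gene Dhx30 had 25.2 and 27.9 FPKM. Of 24 genes for mitochondrial RNA synthesis and processing, 19 were higher and 5 lower (median 0.09). They included Tfb2m, a transcription initiation factor (27.5 and 32.1 FPKM), Grsf1, an RNA granule protein (44.8 and 51.5 FPKM), Fastkd5 (5.98 and 7.30 FPKM) and Polg2, the accessory subunit of the mitochondrial DNA polymerase (19.7 and 23.2 FPKM). None of the genes in these 4 lists reached 1.5-fold or was called in the authors' deposited table.

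Genes that serve as measures of mitochondrial content were likewise higher with soy for the most part. Of 18 with at least 1 FPKM, 16 were higher with soy, with a median of 0.11. The import channel gene Timm23 had 18.5 and 22.9 FPKM, the chaperone Hspa9 157 and 192 FPKM, the fusion protein Opa1 25.2 and 29.3 FPKM, and Immt, which shapes the cristae, 102 and 117 FPKM. Of 11 regulators of mitochondrial biogenesis, 7 were higher and 4 lower, with a median of 0.05. The coactivators Ppargc1a (14.8 and 17.6 FPKM) and Ppargc1b (2.16 and 2.67 FPKM) were higher, and their relative Pprc1 lower (4.65 and 3.90 FPKM). Myc, which activates genes of growth and ribosome production, was 1.55-fold lower (15.1 and 9.72 FPKM) and the only gene of these 2 lists past 1.5-fold. The housekeeping genes had a median of -0.03 over 12, with 5 higher and 7 lower, from -0.51 for B2m, the light chain of MHC class I, and -0.28 for Actb to 0.25 for Sdha and 0.36 for the transferrin receptor Tfrc. The lists overlap with each other and with the groups compared below. Sdha and Cox4i1 also count as respiratory chain genes and Rplp0 as a cytosolic ribosomal protein gene. Tfam is both among the regulators and in the list for RNA synthesis and processing.

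**Figure D5:**
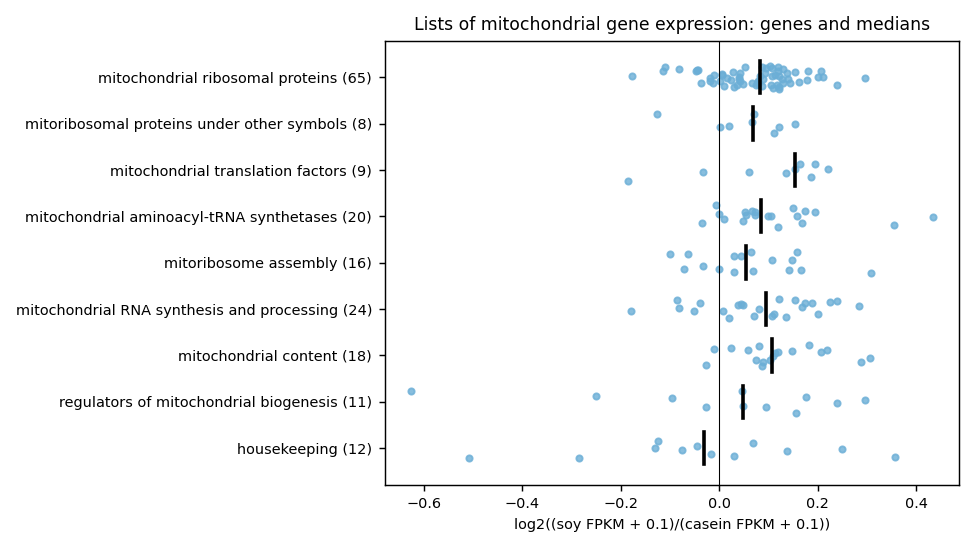
Log2 difference of soy over casein (horizontal axis) for each gene (points, spread vertically only for legibility) of the mitochondrial lists and the housekeeping list, with the median of each list as a black bar and the number of genes in brackets. Medians of the 8 mitochondrial lists lie between 0.05 and 0.15, and that of the housekeeping genes at -0.03.

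Set beside the most similar groups, the mitochondrial ribosomal proteins lay between the respiratory chain and the cytosolic ribosome. Of 83 respiratory chain and ATP synthase genes with at least 1 FPKM, 80 (96.4%) were higher with soy, with a median log2 difference of 0.15. Of 69 cytosolic ribosomal protein genes, 10 (14.5%) were higher and 59 lower, with a median of -0.10. Both groups were far more abundant, with median levels of 247 and 289 FPKM with casein against 40.4 FPKM for the mitochondrial ribosomal proteins. The widths of the middle 50% of the log2 difference were 0.11 for the mitochondrial ribosomal proteins, 0.09 for the respiratory chain and 0.10 for the cytosolic ribosome, against 0.28 for all genes and 0.23 for all genes in the members' range of mean. The 3 groups were measured in the same 2 libraries, and with 1 library per diet the differences between their medians have no test.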

How the data were processed

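Kidney RNA was measured by sequencing in 1 library per diet, casein and soy. The authors deposited FPKM values per gene and per transcript, per the file headers, and their gene table also gives the authors' log2 fold, test statistic (used as a score), p-value and q-value. Bowtie, TopHat and Cufflinks were used, per the submitters' processing notes, which give no versions. Which build, annotation and scaling between libraries they used was not given in the sources used here. None of the 145 transcripts in the authors' second deposited table belongs to a member. Deposited loci start at base 0 on the mitochondrial genome, so 1 was added to each start.

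FPKM are not counts and depth is unknown, so no counting interval is given. With 1 library per diet no test across samples was run. Log2 differences used a pseudocount of 0.1 FPKM and a limit of 1 FPKM on the mean, and fold limits were applied to them, so the fold of low genes is understated; printed folds are ratios of FPKM. Standard errors were derived from the authors' deposited log2 fold and test statistic.

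The members and lists were chosen with earlier results of these data known. List genes were matched by symbol or by RefSeq synonym (GRCr8, names only). Of the members, 31 were named: the 8 highest and 8 lowest differences, the 6 highest and 6 lowest levels, the 3 lowest p-values in the authors' deposited table, and the Mrps18, stalk and exit tunnel genes; others named were chosen after their values were seen. From each list at most 4 genes with the largest differences were named, and the factors behind the motifs were added. Lactb, Gars and Kars were named as well. The motif search, its 3 motifs and the promoters printed were chosen after the values had been seen. Procedures were tested on simulated data. The shifts planted there were larger than the members' median log2 difference, so the recovery of a difference that small was not tested. Alternatives were other pseudocounts (0.01 and 1 FPKM), other limits on the mean (none and 5 FPKM), centring, status OK only, 1 row per symbol, other fold limits, mean or sum in place of the median, and subunit by place. Software was scipy 1.17.1, matplotlib 3.10.9, pandas 2.3.3 and numpy 2.4.6 under Python 3.11.15.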

Additional observations from a re-analysis of the deposited data

How the results depend on the processing

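No paired analysis was possible because each diet has 1 library, and for the same reason no library could be left out. Over all alternatives the number of the 65 genes at least 1.5-fold higher or lower stayed at 0, limits of 25% more and of 2-fold included. The median log2 difference lay between 0.07 (centred on all genes) and 0.11 (centred on the housekeeping genes), and the same centrings gave 49 and 57 genes higher, with 16 and 8 lower. Chosen after seeing the data, leaving out the 21 genes for which RefSeq lists a pseudogene or further copy gave 37 higher and 7 lower with a median of 0.08, a lower count that follows from testing 44 genes, and leaving out the 5 genes with loci of over 100 kb gave 48 higher and 12 lower. The median of the housekeeping genes, -0.03, becomes 0 when centred on itself, by construction. Medians of the large and small subunit genes stayed between 0.07 and 0.14, and those of the 7 other mitochondrial lists between 0.04 and 0.19. A change was counted when a median moved by over 0.1 or did not keep its sign, or when a count changed by over 1.5 times. By that rule 136 of 138 values stayed the same. The limit of 0.1 is larger than the members' own median of 0.08, so this tally says little about differences of that size. Status OK only and 1 row per symbol kept the same 65 genes, so these settings could not change the members' values. The depth of the libraries is unknown, so how far it limits these differences cannot be given.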
